A study of Mus musculus with 24 samples.

Results

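The 35 genes described here are genes of cell division and DNA replication, listed by name: the proliferation marker Mki67, topoisomerase Top2a, mitotic cyclins with Cdk1, spindle checkpoint genes, mitotic kinases, spindle proteins, the 6 subunits of the MCM2-7 helicase, origin licensing factors, the replication clamp and nucleotide supply, and regulators of entry into S phase. They were chosen by gene symbol in a table that pairs the probe sets of the array with genes, and a gene was measured where at least 1 probe set belonged to that gene alone, with the probe set of highest mean taken where there were several. In this way 29 of the 35 genes were measured, of 18820 genes measured in all. Of the other 6, Ube2c, Kif20a, Nusap1, Tyms and Ccne2 were listed only on probe sets shared with another gene, and Ccnb1 was not listed on any. Livers came from 24 male mice of the C57BL/6J background, aged 4 to 6 months, of which 8 ate the Trans diet (partially hydrogenated soy oil), 8 the Cis diet (canola and palm olein oil) and 8 the Saturated diet (cocoa butter). Feeding lasted 7 weeks, and fat supplied 45% of the energy in all 3 diets, so every group was fed a high fat diet and the comparisons hold no low fat control. Each mouse gave 1 Affymetrix Mouse Gene 1.1 ST array of total liver RNA. The comparisons between the diets ask whether the kind of fat altered the expression of these genes.

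A dividing cell copies its DNA in S phase and separates the copies in mitosis. Before S phase, Cdc6 and Cdt1 load the MCM2-7 helicase onto replication origins, E2F1 drives transcription of replication genes, and cyclin D1 and cyclin E carry the cell past the G1 checkpoint. Cyclins A and B with Cdk1 then bring about mitosis, which the spindle checkpoint holds until all chromosomes are attached and Cdc20 ends with the anaphase-promoting complex. Hepatocytes of the adult liver are mostly quiescent and return to the cycle after tissue loss or injury. In whole liver RNA, fewer cells in the cycle and less RNA per cell cannot be told apart.

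Promoters of these genes are known to share short sequence elements. A cell cycle homology element (CHR, searched as TTTGAA or TTCGAA) and CCAAT boxes (CCAAT) are typical of genes transcribed late in the cycle, and E2F sites (searched as TTTCCCGC, TTTGGCGC or TTTCGCGC) of genes transcribed at the start of S phase. Both strands of a window of 300 bases, 250 before the RefSeq start of the gene and 50 after it (mouse build GRCm38.p6), were searched, and 28 of the 35 genes had a window. No window was held for Ccna2, Aurkb, Kif20a, Tpx2, Mcm4, Ccnd1 and Ccne2. A CHR element stood in a window of 12 of 15 mitotic genes and of 2 of 13 replication and G1 genes, against 19.2% of all 32851 windows. Prc1 and Mcm7 had more than 1 window, and a match in any of them counted, so the gene counts and the shares of windows differ in unit. A CCAAT box was found for 13 of the 15 genes and 8 of the 13, against 37.4% of all windows. An E2F site was found for 1 of the 15 genes and 6 of the 13, against 1.84% of all windows. A match is a stretch of letters and not a known binding site. The stretches of 4 promoters are printed on the strand of the gene, with matches on either strand in capitals and each ending at the last base before the start, to show both kinds of arrangement. Cdk1 (chr10:69352913-69353052, minus strand) holds all 3 elements, Cdc20 (chr4:118437344-118437423, minus strand) and Top2a (chr11:99024190-99024339, minus strand) hold CHR elements and CCAAT boxes, and Mcm6 (chr1:128359706-128359825, minus strand) holds E2F sites, of which a pair overlap, and CCAAT boxes.
Cdk1: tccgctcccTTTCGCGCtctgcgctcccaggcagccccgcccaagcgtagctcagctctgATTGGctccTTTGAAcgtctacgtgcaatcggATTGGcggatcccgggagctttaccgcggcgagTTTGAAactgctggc
Cdc20: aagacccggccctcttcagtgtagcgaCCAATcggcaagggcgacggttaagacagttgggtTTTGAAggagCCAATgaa
Top2a: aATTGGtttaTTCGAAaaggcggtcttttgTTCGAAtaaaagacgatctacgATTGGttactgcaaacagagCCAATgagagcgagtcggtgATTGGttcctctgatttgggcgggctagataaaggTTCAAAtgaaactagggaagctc
Mcm6: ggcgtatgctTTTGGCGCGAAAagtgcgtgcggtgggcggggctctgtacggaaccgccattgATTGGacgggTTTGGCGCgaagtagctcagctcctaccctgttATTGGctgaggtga

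Most of these genes gave a low signal in the livers. The values are RMA signals on the log2 scale, and a linear signal of 20 (the level brought back from the log2 scale, as the mean over the 24 livers) served as a mark of low signal. Only 4 of the 29 genes, 13.8%, lay above it: Pcna at 172, Ccnd1 at 103, Rrm1 at 37.2 and Mcm7 at 28.3. Of all 18820 genes 8349 did, or 44.4%. The median over the 29 genes was 9.29, against 12.8 over all genes. Levels of different genes come from different probes and cannot be ranked against each other, so a list of 25 genes of other tissues, which liver is known not to use, served as a reference for unexpressed genes: the rod photoreceptor gene Gnat1 read 16.4, the other 24 genes read from 2.81 to 6.31, and their median was 3.89. Of the 29 cell cycle genes, 7 read below 6.31 (Cdk1, Bub1, Bub1b, Aurkb, Birc5, Prc1 and Cdc6). Against the highest reference gene, Gnat1, 22 of the 29 read lower and 7 higher.

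**Figure D1:**
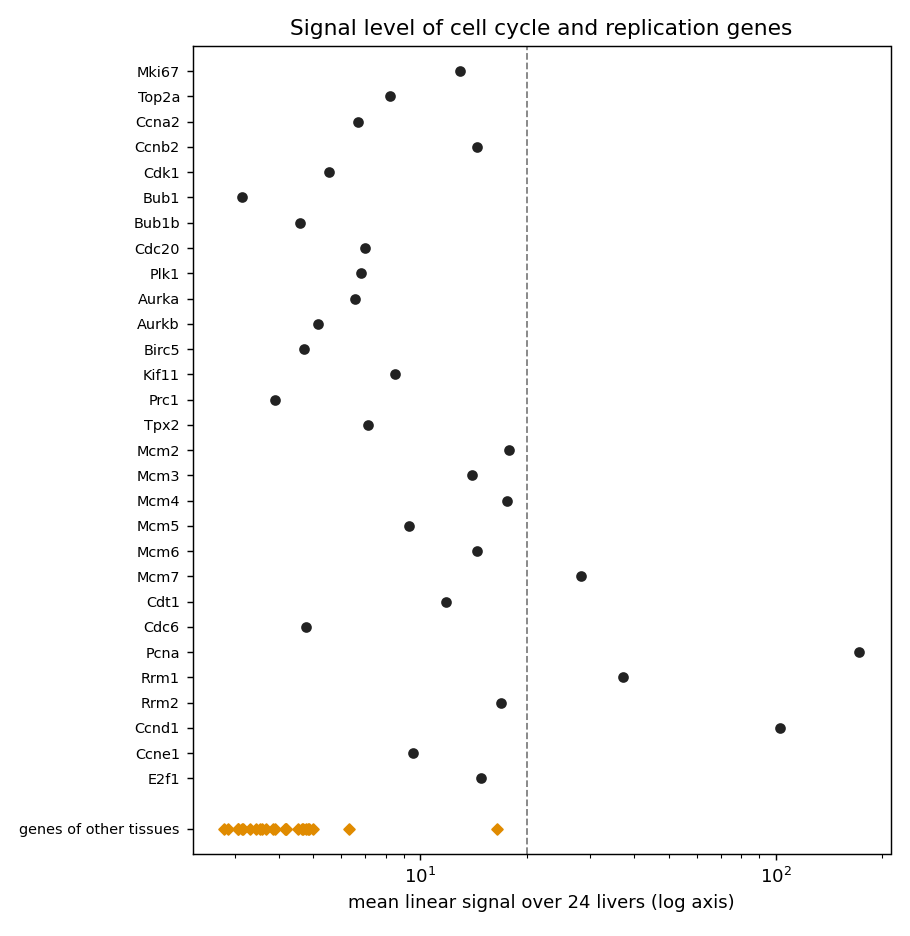
Mean linear signal over 24 livers (log axis) for the 29 measured cell cycle genes (black points, one per gene) and for 25 genes of other tissues (orange diamonds), with the dashed line at a signal of 20. Pcna, Ccnd1, Rrm1 and Mcm7 lie to the right of the line, and the other 25 genes lie to its left. All genes of other tissues but Gnat1 (16.4) read 6.31 or less, as do 7 of the cell cycle genes. Gnat1 lies above 22 of the cell cycle genes.

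The mitotic genes were all among the low signals. Mki67, which marks cells in the cycle, had a mean signal of 12.9 and Top2a, which untangles DNA, one of 8.22. The cyclins Ccna2 and Ccnb2 stood at 6.67 and 14.4, and their kinase Cdk1 at 5.53. In the spindle checkpoint, Bub1 stood at 3.16, Bub1b at 4.59 and Cdc20, which activates the anaphase-promoting complex, at 7.00. The mitotic kinases Plk1, Aurka and Aurkb stood at 6.81, 6.56 and 5.15, and Birc5, which sits with Aurkb in the chromosomal passenger complex, at 4.70. The spindle motor Kif11 stood at 8.48, the midzone protein Prc1 at 3.89 and the spindle assembly factor Tpx2 at 7.11. The helicase subunits Mcm2 to Mcm6 stood at 17.8, 14.0, 17.5, 9.29 and 14.5 in that order, the licensing factors Cdt1 and Cdc6 at 11.8 and 4.77, and Rrm2, the small subunit of ribonucleotide reductase, at 16.8. Ccne1, or cyclin E1, stood at 9.55 and the transcription factor E2f1 at 14.9.

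No cell cycle gene was called different between Trans and Saturated livers. Of the 29 genes, 20 had the higher mean in Trans and 9 the lower, and the median log2 difference was 0.10, against 0.00 over all genes. Of all 35556 probe sets, with or without a gene listed, 49.9% had the higher mean in Trans. Differences ran from −0.16 for Ccna2 to 0.36 for Ccnb2. In limma, with Benjamini-Hochberg adjustment over all 35556 probe sets, 0 of 29 passed an adjusted p under 0.05, where 3 of all probe sets did (0.00844%), and the smallest adjusted p among the genes was 0.554, for Cdt1. At an unadjusted p under 0.05 there were 3 genes, all higher in Trans (Cdt1, Mcm2 and Bub1), or 10.3% of the 29, beside 7.32% of all probe sets in either direction. The 95% interval of the difference lay within a 2-fold change either way for all 29 genes and within a 1.5-fold change for 24. These intervals are of the array signal, which lay under 20 for 25 of the 29 genes, and do not bound the change in RNA. In every one of the 29 genes the values of the Trans and Saturated livers overlapped. No share over all probe sets is given beside these counts of intervals and overlaps, so they are not read as particular to these genes.

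Cdt1, which loads the helicase onto origins, had the largest difference between Trans and Cis livers, though it was not called. Among the 29 genes, 22 had the higher mean in Trans and 7 in Cis, with a median log2 difference of 0.08, against 0.00 over all genes and 48.9% of probe sets with the higher mean in Trans. Differences ran from −0.30 for Rrm2 to 0.52 for Cdt1. At an adjusted p under 0.05, limma called 0 of 29, and 1 of all probe sets (0.00281%). Cdt1 had the smallest adjusted p, 0.550, and was the only gene at an unadjusted p under 0.05 (3.45% of the 29, beside 6.16% of all probe sets). The 95% interval lay within a 2-fold change for all 29 genes and within a 1.5-fold change for 23. These intervals too are of the array signal, low for most of the genes, and do not bound the change in RNA. The 2 groups overlapped in all 29, again with no share over all probe sets beside the counts of intervals and overlaps.

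Between Cis and Saturated livers no gene of the 29 was called either. The mean was higher in Cis for 19 of the 29 genes and lower for 10, and the median log2 difference was 0.04, against 0.00 over all genes and 51.3% of probe sets with the higher mean in Cis. Differences ran from −0.25 for Ccna2 to 0.30 for Rrm2. Limma called 0 of 29 genes at an adjusted p under 0.05 and 0 of all probe sets (0%), with a smallest adjusted p of 0.840 for Rrm2. No gene reached an unadjusted p under 0.05, where 6.57% of all probe sets did. All 29 intervals lay within a 2-fold change and 24 within a 1.5-fold change. Here too they bound the array signal and not the change in RNA, and no share over all probe sets is given. Each pair of comparisons shares 1 group of livers, so the directions of the 3 comparisons are not independent of each other.

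**Figure D2:**
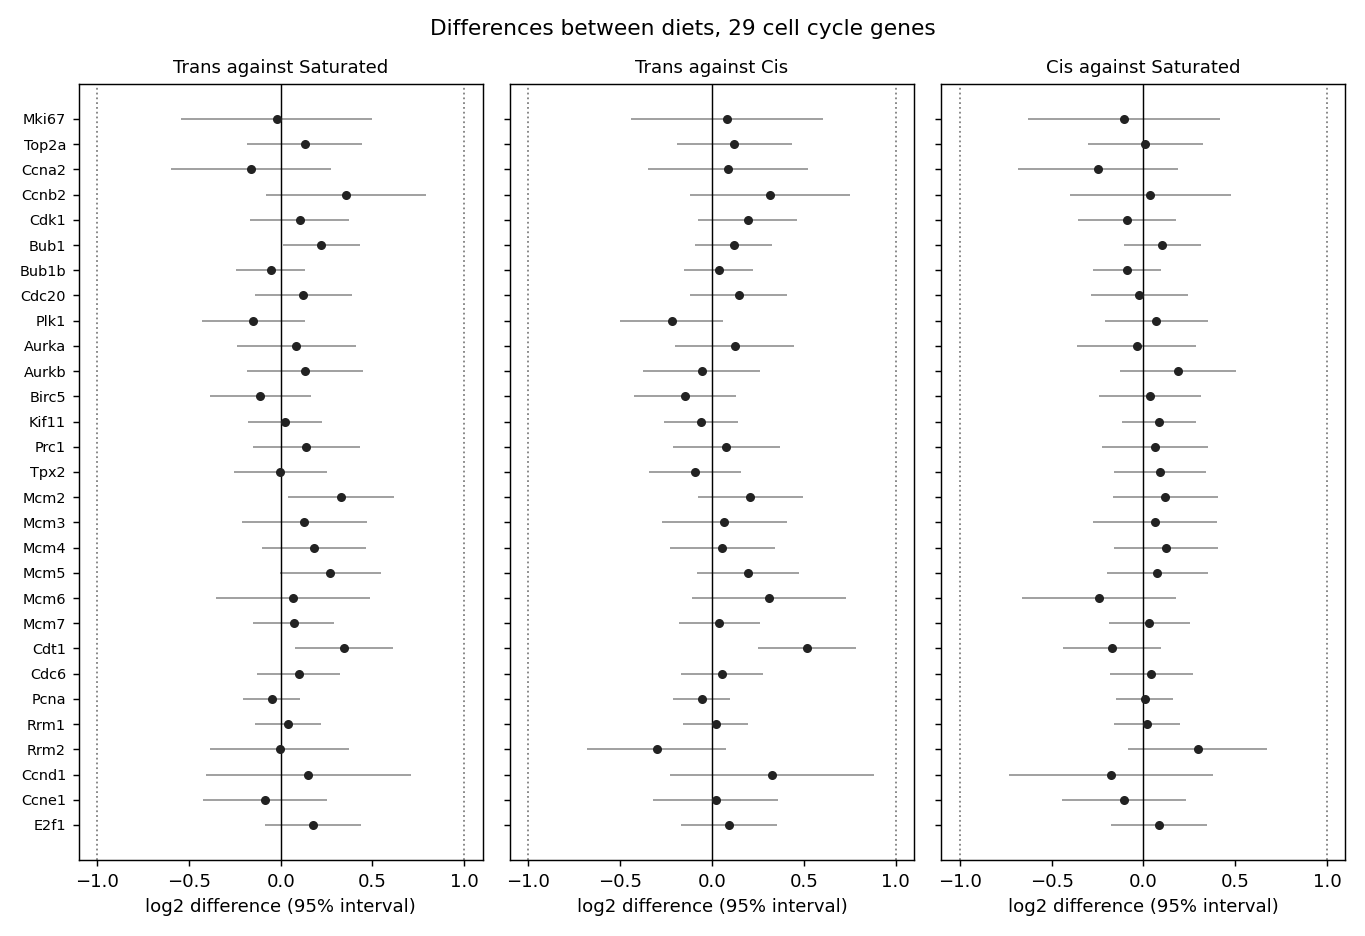
Log2 differences (points) with 95% intervals (lines) for the 29 genes in the 3 comparisons, where positive values mean a higher mean in the diet named first and the dotted lines mark a 2-fold change. No interval crosses a dotted line, and the only intervals clear of 0 are those of Bub1, Mcm2 and Cdt1 in Trans against Saturated and of Cdt1 in Trans against Cis.

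Cdt1, which holds the largest difference of any gene in any of the 3 comparisons, that of Trans against Cis, was low in signal in all diets. In Trans livers its log2 signal ran from 3.39 over a median of 3.79 to 4.28, in Cis from 2.85 over 3.30 to 3.68, and in Saturated from 3.06 over 3.52 to 3.66. All 8 Trans livers lay above the mean of the Cis livers, 5 of them above the highest Cis liver, and 7 above the mean of the Saturated livers. The log2 difference was 0.52 (standard error 0.13, limma adjusted p = 0.550) in Trans against Cis, 0.34 (standard error 0.13, adjusted p = 0.554) in Trans against Saturated and −0.17 (standard error 0.13, adjusted p = 0.865) in Cis against Saturated. Its linear signal was 14.3 ± 2.76 in Trans (SD, n = 8), 10.02 ± 2.17 in Cis and 11.1 ± 1.32 in Saturated. Cdc6, its partner in licensing, had log2 differences of 0.10 in Trans against Saturated, 0.05 in Trans against Cis and 0.04 in Cis against Saturated.

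The MCM2-7 helicase unwinds DNA at the replication fork. All 6 subunits had the higher mean in Trans against both other diets, with log2 differences from 0.07 to 0.33 against Saturated and from 0.04 to 0.31 against Cis, and none was called. These directions rest in part on single livers. Without Trans replicate 1, Mcm6 was −0.08 against Saturated and Mcm3 −0.03 against Cis, without Saturated replicate 2 Mcm6 also turned, and Mcm7 turned against Cis without any of 3 livers (lowest −0.02, without Cis replicate 7). Mcm2 gave a log2 signal from 3.76 over a median of 4.26 to 4.79 in Trans, from 3.74 over 4.12 to 4.42 in Cis and from 3.54 over 3.95 to 4.46 in Saturated. Of 8 Trans livers, 7 had more than the Saturated average, 3 of them above every Saturated liver, with a log2 difference of 0.33 (standard error 0.14, limma adjusted p = 0.623). Mcm5 differed by 0.27 (standard error 0.13, adjusted p = 0.693). Mcm7, the subunit with signal over 20, ran from 4.62 to 5.17 in Trans, from 4.39 to 5.18 in Cis and from 4.40 to 5.03 in Saturated, and its log2 difference of 0.07 between Trans and Saturated had a 95% interval from −0.15 to 0.29.

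Pcna, the sliding clamp of the replicative polymerases, held the narrowest range of the 29 genes. Its log2 signal ran from 7.28 over a median of 7.38 to 7.45 in Trans, from 7.23 over 7.39 to 7.68 in Cis and from 7.17 over 7.41 to 7.63 in Saturated. The highest and lowest of the 24 livers were 1.42-fold apart. The difference between Trans and Saturated was −0.05, with a 95% interval from −0.20 to 0.11, and that between Trans and Cis −0.06, from −0.21 to 0.10. Rrm1, the large subunit of ribonucleotide reductase, which makes deoxynucleotides, lay between 4.82 and 5.49 in all livers, with medians of 5.21 in Trans, 5.26 in Cis and 5.18 in Saturated. Its difference of 0.04 between Trans and Saturated had an interval from −0.14 to 0.22. The partner subunit Rrm2 had medians of 4.02, 4.38 and 3.82 in the same order, and its difference was −0.30 (standard error 0.18, limma adjusted p = 0.843) between Trans and Cis.

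Among the regulators of G1, Ccnd1 (cyclin D1), which growth signals induce, varied most from liver to liver. It ran from 5.54 over a median of 6.63 to 7.78 in Trans, from 5.77 over 6.40 to 7.02 in Cis and from 5.91 over 6.67 to 7.16 in Saturated. The highest and lowest livers, both fed the Trans diet, were 4.70-fold apart. The linear signal was 122 ± 67.2 in Trans (SD, n = 8), 87.4 ± 24.1 in Cis and 98.7 ± 26.2 in Saturated. Its log2 difference was 0.15 (standard error 0.27, limma adjusted p = 0.952) in Trans against Saturated and 0.33 (standard error 0.27, adjusted p = 0.889) in Trans against Cis. Without Trans replicate 1 these became 0.00 and 0.18. E2f1 had medians of 3.94 in Trans, 3.85 in Cis and 3.77 in Saturated, and ran from 3.37 to 4.44 over all livers. Its difference between Trans and Saturated was 0.18, with an interval from −0.08 to 0.44. Ccne1 differed by −0.08 in the same comparison.

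Mki67 ran from 2.88 over a median of 3.66 to 4.24 in Trans, from 2.82 over 3.61 to 4.49 in Cis and from 2.78 over 3.43 to 4.62 in Saturated. The range within a diet was larger than any difference between the diet means, which vary less than single livers. The log2 difference was −0.02 in Trans against Saturated (95% interval −0.55 to 0.50) and 0.08 in Trans against Cis (−0.44 to 0.61). Top2a ran from 2.63 over 3.08 to 3.66 in Trans, from 2.64 over 2.93 to 3.49 in Cis and from 2.52 over 2.91 to 3.67 in Saturated. For both genes the highest liver of each diet was the same animal: Trans replicate 1, Cis replicate 6 and Saturated replicate 7. Top2a differed by 0.13 between Trans and Saturated, with an interval from −0.18 to 0.44, and by 0.0096 when its probe sets were averaged.

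Cdk1 ran from 2.25 over a median of 2.51 to 2.76 in Trans, from 2.11 over 2.29 to 2.80 in Cis and from 1.93 over 2.38 to 3.17 in Saturated. Its difference was 0.10 (interval −0.16 to 0.37) in Trans against Saturated and 0.19 (−0.08 to 0.46) in Trans against Cis. Bub1, a kinase of the spindle checkpoint, ran from 1.28 over 1.71 to 2.24 in Trans, from 1.504 over 1.62 to 1.81 in Cis and from 1.37 over 1.52 to 1.81 in Saturated. Of 8 Trans livers, 7 had more than the Saturated average, with a log2 difference of 0.22 (standard error 0.10, limma adjusted p = 0.654), at a mean signal of 3.16. The mitotic kinases and Birc5 had differences from −0.15 to 0.13 between Trans and Saturated, 2 in each direction, and the 3 spindle genes differences from −0.001 to 0.14.

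**Figure D3:**
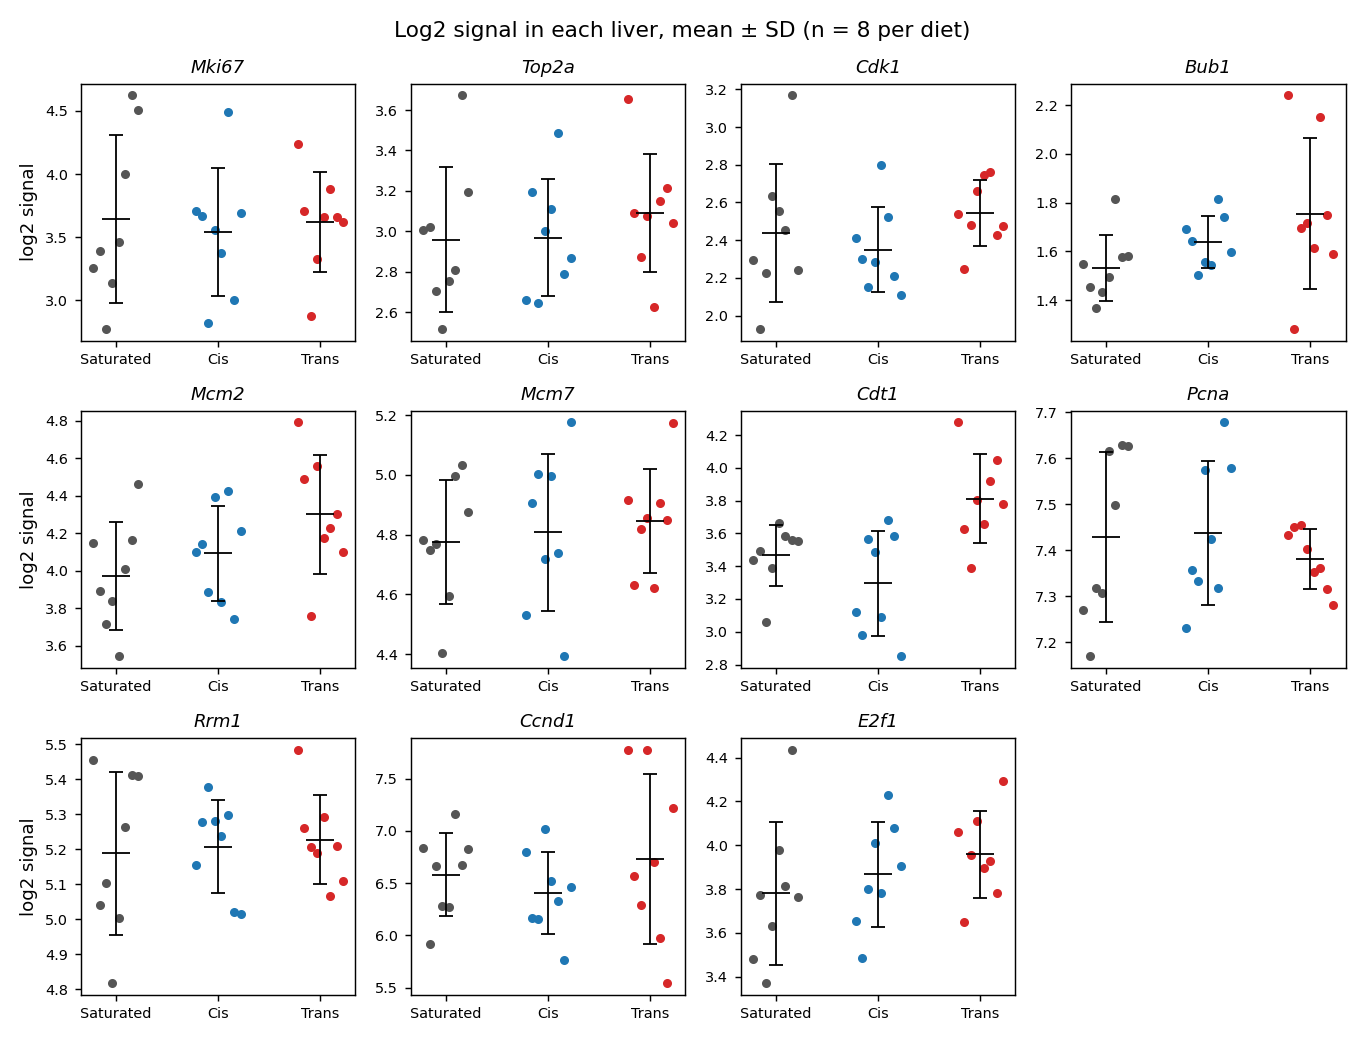
Log2 signal of 11 genes in each liver by diet (points), with the mean and SD of the 8 livers of each diet (bars); each panel has its own axis. The points of the 3 diets overlap in every panel, and the Trans livers lie highest for Cdt1, 5 of them above all Cis livers.

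Single livers differed more than the means of the diets did. A mean of 8 livers varies less than single livers, so this does not show that diet had no effect. For each liver, the deviation of every gene from its own mean over the 24 livers was averaged over the 29 genes. This mean deviation was 0.06 ± 0.17 in Trans (SD, n = 8), −0.02 ± 0.14 in Cis and −0.03 ± 0.22 in Saturated. It ran from −0.21 in Trans replicate 3 to 0.39 in Trans replicate 1, from −0.19 in Cis replicate 7 to 0.25 in Cis replicate 6, and from −0.26 in Saturated replicates 2 and 3 to 0.35 in Saturated replicate 7. The livers of the 3 diets overlapped over most of this range, and the highest liver of each diet lay far from the lowest of the same diet. In Trans replicate 1, 26 of the 29 genes lay above their own mean, in Saturated replicate 7 27 and in Cis replicate 6 23. Saturated replicates 2 and 3 had 2 each. Trans replicate 1 and Saturated replicate 7 each held the highest value of 8 genes, and Cis replicate 6 that of 3.

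**Figure D4:**
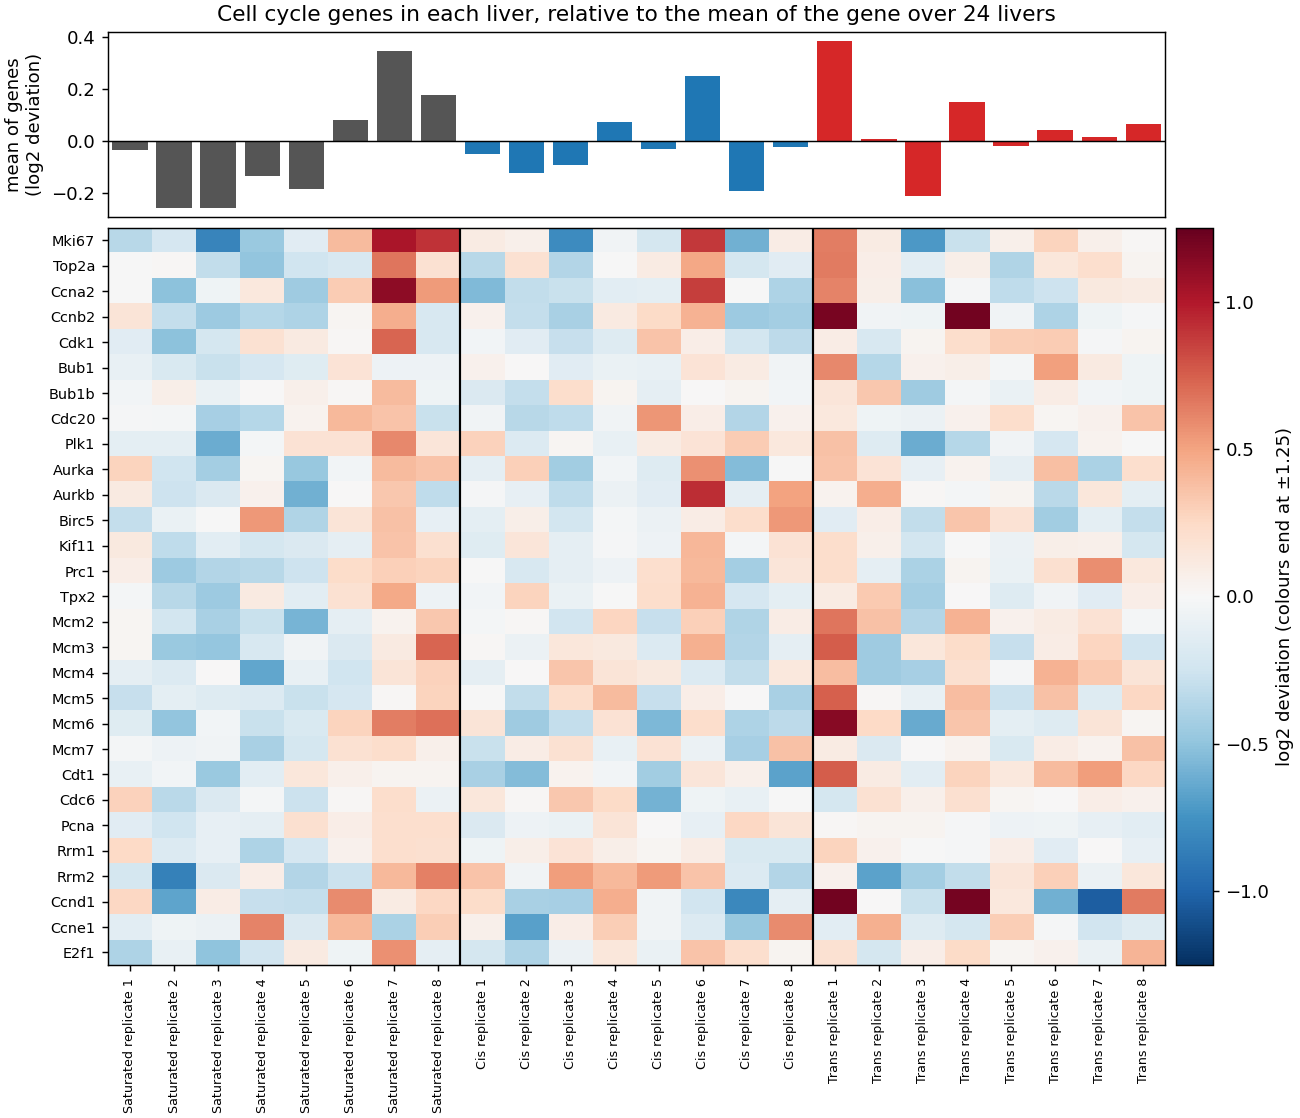
Log2 deviation of each of the 29 genes from its own mean over the 24 livers (colours, from blue for lower to red for higher), with the mean over the genes above it (bars). Trans replicate 1 (0.39), Saturated replicate 7 (0.35) and Cis replicate 6 (0.25) have the tallest bars, 1 in each diet, and Ccnb2 and Ccnd1 are darkest in Trans replicates 1 and 4.

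The livers with high values were not the same for all genes. Saturated replicate 7 held the highest Mki67 (4.62), Top2a (3.67), Ccna2 (3.79), Cdk1 (3.17), Bub1b (2.58), Plk1 (3.34), Tpx2 (3.29) and E2f1 (4.44). These are mitotic genes apart from E2f1. Cis replicate 6 held the highest Aurka (3.25), Aurkb (3.25) and Kif11 (3.49), also mitotic genes. Trans replicate 1 held the highest Bub1 (2.24), Mcm2 (4.79), Mcm3 (4.53), Mcm5 (3.93), Mcm6 (4.92), Cdt1 (4.28), Rrm1 (5.49) and Ccnd1 (7.78). 6 of these 8 belong to replication, and 4 are helicase subunits. Ccnb2, cyclin B2, reached 4.98 in Trans replicate 4 and 4.95 in Trans replicate 1, and at most 4.22 in any other liver.

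After the mean of each diet was taken off, the log2 values of 2 cell cycle genes correlated across the 24 livers with a median Pearson r of 0.29 over 406 pairs (Spearman 0.25), of which 364 were positive. Over all pairs of the 18820 genes the median was 0.00, and over the genes of other tissues, whose signals are also low, 0.06. These genes share arrays and livers, and the values are a description. For the 15 mitotic genes the median was 0.41, and for the other 14 it was 0.23. With the highest liver of each diet left out, a choice made after seeing the values, the median over the 29 genes was 0.18, that of the mitotic genes 0.19, that of the other 14 genes 0.23 and that of the genes of other tissues 0.10. Outside the 35, the median over 29 further mitotic genes was 0.20 with all livers and 0.05 without these 3, and over 31 further replication genes 0.08 and 0.05. Of the 29 further mitotic genes, Saturated replicate 7 held the highest value of 8, Cis replicate 6 of 5 and Trans replicate 1 of 3.

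Markers of other cells moved with some of these livers. Trans replicates 1 and 4, with the highest Ccnd1 and Ccnb2, also had the highest mean deviation of the 10 stellate cell and fibroblast markers, at 0.78 and 0.48, and the highest Col1a1, a collagen chain, at 6.48 and 6.10. Col1a1 was 5.57 in Cis replicate 6 and 4.28 in Saturated replicate 7, so the latter was not high in it. Stellate markers were not the only ones raised: the 14 Kupffer cell and macrophage markers had mean deviations of 0.26 in Trans replicate 1 and 0.24 in Trans replicate 4. Trans replicate 1 held the highest value of 5 of them, though Saturated replicate 6 had a higher mean deviation, 0.61. Trans replicate 4 was also the array least like the others (median correlation 0.9748), with the highest mean deviation of endothelial (0.25), cholangiocyte and progenitor (0.50) and other-tissue genes (0.14). Over the diets, the stellate cell and fibroblast markers had a higher mean in Trans than in Saturated for 7 of 10 (median 0.11) and than in Cis for 8 of 10 (median 0.25), and their mean log2 level per liver ran from 5.20 to 6.14 in Trans, from 5.01 to 5.53 in Cis and from 5.13 to 5.50 in Saturated. Saturated replicate 8 stood apart in markers of granulocyte precursors, dividing cells outside the hepatocyte lineage. It held the highest Elane, Mpo, Prtn3, Camp, Ltf and Ngp of the 24 livers. Mpo, myeloperoxidase, was at 4.45, where no other liver had more than 2.38, but Camp was at 2.33 against at most 2.31 elsewhere. The 4 erythroid markers measured (Klf1, Alas2, Epor and Tfrc) were highest in other livers. Saturated replicate 8 also held the second highest Mki67 (4.51) and the highest Rrm2 (4.66). In it 19 of the 29 cell cycle genes lay above their own mean, with a mean deviation of 0.18. Cdk1 (2.24), Cdc20 (2.50) and Aurkb (2.02) were among those below their mean, and the 29 further mitotic genes had a mean deviation of −0.02 there. Trans replicate 1, Cis replicate 6 and Saturated replicate 7 had Mpo at 1.80, 1.98 and 1.89, near the floor. Endothelial markers had the higher mean in Trans for 7 of 9 against Saturated (median 0.08) and 9 of 9 against Cis (median 0.10), Kupffer cell and macrophage markers for 6 and 9 of 14 (medians −0.02 and 0.10), T, B and NK cell markers for 2 and 7 of 12 (medians −0.10 and 0.05), and cholangiocyte and progenitor markers for 4 and 5 of 6 (medians 0.07 and 0.07). The erythroid and granulocyte precursor markers had the higher mean in Trans for 2 of 10 against Saturated (median −0.11) and 0 of 10 against Cis (median −0.05). No marker of these lists was called in any comparison. The part of these cells in the signals of the cell cycle genes was not tested.

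Genes of the cell cycle outside the 35 were not called either. Of 29 further mitotic genes, 12 had the higher mean in Trans against Saturated (median −0.01) and 14 against Cis (median −0.01). Of 31 further replication genes, 16 and 18 did (medians 0.00 and 0.03), and of 19 other cyclins, CDKs and E2F factors, 6 and 10 (medians −0.02 and 0.01). In limma 0 genes of these 3 lists were called in any comparison. The numbers at an unadjusted p under 0.05, in the same order of lists, were 1, 5 and 2 in Trans against Saturated. They were 0 in Trans against Cis, and 0, 2 and 1 in Cis against Saturated. Of all probe sets, 7.32%, 6.16% and 6.57% passed this mark in the 3 comparisons. The largest replication difference at an unadjusted p under 0.05 was that of Prim1, the DNA primase subunit. It was 0.47 between Trans and Saturated (standard error 0.13, limma adjusted p = 0.363). In that comparison Cdk6, a partner of cyclin D, differed by 0.28 (limma adjusted p = 0.465). E2f8, an E2F factor of the same list, went the other way, by −0.54 (limma adjusted p = 0.613). Of 20 cell cycle inhibitors and p53 targets, 14 had the higher mean in Trans against Saturated (median 0.08) and 15 against Cis (median 0.12). Cdkn1b, the inhibitor p27, had a difference of −0.19 (adjusted p = 0.469) and Sesn2, a stress-response gene, one of 0.27 (adjusted p = 0.595) in Trans against Saturated. Cdkn1a, the inhibitor p21, was 6.09 in Trans replicate 1, 6.41 in Cis replicate 6 and 5.77 in Saturated replicate 7, each above the median liver of its diet. It was as high in livers near the average of the cell cycle genes: 6.53 in Trans replicate 6, 6.52 in Saturated replicate 1 and 6.02 in Trans replicate 7. The mean deviations of the cell cycle genes there were 0.04, −0.04 and 0.02. Of 18 growth signals of liver regeneration, 10 had the higher mean in Trans against Saturated (median 0.09) and 10 against Cis (median 0.06). Egfr, the epidermal growth factor receptor, differed by −0.76 between Trans and Saturated (standard error 0.22, limma adjusted p = 0.372) and was not called. Socs3 went the other way in that comparison, by 0.43 (standard error 0.19, limma adjusted p = 0.627), and was not called either. Hepatocyte markers checked the tissue: all 14 were measured above a signal of 20. The mean was lower in Trans than in Saturated for 13 of the 14 (median −0.04) and than in Cis for 8 (median −0.01), and 0 were called, with 2 and 0 at an unadjusted p under 0.05. Alb, albumin, had log2 signals of 12.9 to 13.0 in Trans replicates 1 and 4, Cis replicate 6 and Saturated replicates 7 and 8. Over the 14 hepatocyte markers, the mean deviations of these livers were all negative: −0.105, −0.040, −0.049, −0.016 and −0.027 in that order. Trans replicate 1 had the lowest of any liver.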

How the data were processed

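Values were the deposited log2 signals, 1 per probe set and liver, which the authors made with RMA (background correction, quantile normalization and probe summary), per the labels and methods. The table held 35556 probe sets, of which 21218 belonged to 1 gene, 1881 to several and 12457 had no gene listed. Values ran from 0.31 to 13.5, and array medians from 2.94 to 3.06. The number of arrays limits the precision. The 24 livers were grouped by the labels, with 8 mice per diet.

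A linear model of the 3 diets was fitted to all 35556 probe sets with limma 3.58.1 in R 4.3.3 (lmFit, eBayes without trend, 21 residual degrees of freedom), two-sided, with Benjamini-Hochberg adjustment and calls at an adjusted p under 0.05. The procedure was tested on simulated data, where recovery was required only for changes larger than any difference of the cell cycle genes. No filter on low signal was applied to the fit. The genes and lists were chosen with earlier results of these data known. Described in full were genes with a mean signal over 20 or an unadjusted p under 0.05 in any comparison, with Mki67, Top2a, Cdk1, Pcna, Ccnd1 and E2f1, and from each other list at most 4 genes of smallest adjusted p in a comparison. Genes named for single livers, such as Col1a1, Mpo and Cdkn1a, were chosen after their values were seen. Alternatives were trend and robust estimation, 2 groups only, array weights, a replicate block, a further quantile normalization, centring on array medians, a signal filter, single-gene probe sets only, the mean over probe sets, a fold of 1.5, unadjusted p, each liver left out, and 2 arrays left out. Promoter windows are from RefSeq.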

Additional observations from a re-analysis of the deposited data

Results flagged for a closer look

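In 90 groups of 8 livers (29 genes and their mean, 3 diets each), 5 had a liver far from the other livers of its diet by Dixon's criterion, and chance gives about 1 in 20 groups. Ccna2 was 3.54 in Cis replicate 6, where the next Cis liver had 2.67. Bub1b was 2.58 in Saturated replicate 7, with the next at 2.26. Cdt1 was 3.06 in Saturated replicate 3, below the next lowest at 3.39. Cdc6 was 1.64 in Cis replicate 5, with the next lowest at 2.14, and 2.02 in Trans replicate 1, with the next lowest at 2.25.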

How the results depend on the processing

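Under the alternatives that keep the adjusted p and with each liver left out, limma called 0 genes in each comparison at an adjusted p under 0.05, of 29 tested, or of 4 with the signal filter; with unadjusted p the counts were 3 (Trans against Saturated), 1 (Trans against Cis) and 0 (Cis against Saturated). The smallest adjusted p of any gene in any setting was 0.387, 0.358 and 0.690. With a liver left out, the median log2 difference ran from 0.04 (without Trans replicate 1) to 0.15 (without Saturated replicate 7), from 0.03 (without Trans replicate 1) to 0.14 (without Cis replicate 6) and from 0.003 (without Saturated replicate 3) to 0.09 (without Saturated replicate 7). The median fell to 0.05, 0.03 and 0.01 with the signal filter (4 genes), and with array weights to 0.07, 0.06 and 0.02.

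Replicate numbers did not pair the livers: same-numbered livers correlated in their deviations from the diet means at −0.08 to 0.18, and at most 2 of 8 correlated best with their own number. With the replicate block, the medians were 0.10, 0.08 and 0.04 and 0 genes were called.

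Directions of 11 of 33 differences of single named genes turned when a liver was left out, all of them small, and the cause was not tested. In Trans against Saturated, Mki67 ran from −0.147 to 0.117 and Rrm1 from −0.0144 to 0.0768. In Trans against Cis, Mki67 ran from −0.0197 to 0.219, Mcm7 from −0.0205 to 0.0911 and Rrm1 from −0.0176 to 0.0434. In Cis against Saturated, Mki67 ran from −0.241 to 0.0341, Top2a from −0.0641 to 0.112, Cdk1 from −0.162 to 0.015, Mcm7 from −0.0204 to 0.0916, Pcna from −0.0298 to 0.0367 and Rrm1 from −0.0336 to 0.0575. Without Trans replicate 4 and Cis replicate 8, Mki67 was 0.0194 (Trans against Saturated), Rrm1 −0.00327 (Trans against Cis), and Mcm7 −0.02 and Pcna −0.013 (Cis against Saturated). Pcna was −0.0188 with array weights and Top2a −0.0778 with the mean over probe sets (Cis against Saturated). Cdt1, Mcm2 and Bub1 kept their direction in the 9 settings and 24 leave-one-outs run for them, which exclude the signal filter, with Cdt1 from 0.45 to 0.58 in Trans against Cis. What the arrays can show is limited by signal, which lay under 20 for 25 of the 29 genes.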
